A study of Mus musculus with 4 samples.

Results

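The DNA replication and G1/S genes described here are 56 genes that encode the proteins that copy chromosomal DNA, together with the cyclins, kinases and E2F transcription factors that bring cells into S phase. They were chosen by gene symbol and function among the 50686 gene identifiers counted in every library. All 56 were found and passed the filter on low counts, among 15394 genes tested. RNA was sequenced in bulk from cultured mouse cells whose source was spleen and lymph node, in 4 groups of 1 library each, namely Yap KO stimulated, WT stimulated, Yap KO unstimulated and WT unstimulated cells. Both stimulated titles carry the number 24 without a unit, and the unstimulated titles carry no number of this kind. What the stimulus was, which cells were purified, how and where Yap was deleted, and the strain, age and number of the mice could not be taken from the sources used here. All 4 titles bear replicate number 1, so a genotype's libraries could share a mouse or a culture, and an effect of genotype cannot be told apart from one of cell source.

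A replication origin is licensed in G1 phase when the origin recognition complex, Cdc6 and Cdt1 load the MCM2-7 helicase around DNA. It is fired in S phase when kinases recruit Cdc45 and GINS, which turn the loaded helicase on. Polymerase alpha with primase then lays primers, the replication factor C complex loads the PCNA clamp, and polymerases epsilon and delta extend the leading and lagging strands. Genes of this machinery are well-known targets of E2F factors, which cyclin D and cyclin E kinases release from the retinoblastoma family of repressors. Resting lymphocytes enter this programme when they are activated to divide.

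The libraries held 19935523 to 25419974 reads in genes, and the level of a member is given below as its reads relative to library size (CPM), scaled between libraries by the trimmed mean of M-values (TMM). Yap1, the gene named by the genotype, had 2 reads in Yap KO stimulated, 3 in WT stimulated, 0 in Yap KO unstimulated and 1 in WT unstimulated cells, so the genotype labels could not be checked on it. All 8 T cell markers looked at were detected in every library. Cd8a and Cd8b1 together had 520.8 CPM in Yap KO and 604.6 CPM in WT stimulated cells, against 2295 CPM in Yap KO and 2150 CPM in WT unstimulated cells. Cd4 had at most 3 reads. Markers of other cells were lower. The 4 NK cell markers summed to 12.1 to 16.3 CPM in stimulated and 180.2 to 196 CPM in unstimulated cells. The 6 B cell markers summed to 17.3 to 29.7 CPM in stimulated and 97.3 to 123.9 CPM in unstimulated cells, and 4 stromal and endothelial markers to 10.2 to 11.1 CPM in stimulated and 120.4 to 156.2 CPM in unstimulated cells. Of these, Klrb1c had at most 1 read and Ncr1 at most 1 read in a stimulated library, and Cdh5 had 0 reads in every library. The 4 plasma cell markers summed to 168.8 to 235.5 CPM in stimulated and 82.6 to 87.9 CPM in unstimulated cells. Xbp1 made up most of this sum, at 162 to 230 CPM in stimulated and 49.1 to 50.7 CPM in unstimulated cells. Jchain was lower in stimulated cells, at 0.104 to 0.587 CPM, against 25.4 to 37.6 CPM in unstimulated cells. Mzb1 and Sdc1 had at most 6.27 CPM. In unstimulated cells Pecam1 alone had 118 to 156 CPM of the stromal and endothelial sum, and Klrd1 161 CPM of the NK cell sum. These marker sums moved with stimulation, and their part in the results below was not tested.

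The members were higher in stimulated than in unstimulated cells almost without exception. Of the 56, 55 rose and 0 fell (edgeR quasi-likelihood test of the state term, additive to genotype, adjusted p 2.49e-08 to 0.0014 among the 55), beside 33.3% of all tested genes called higher, 34.1% lower and 67.4% either way. Only Ccnd3, which encodes cyclin D3, did not pass (adjusted p = 0.799 in edgeR). The median log2 ratio of the members, stimulated over unstimulated, was 2.37 in Yap KO and 2.57 in WT cells, beside -0.05 in Yap KO and -0.02 in WT cells over all tested genes. The members took 1.26% of the reads in genes in Yap KO stimulated cells (95% Wilson interval 1.25 to 1.26%) and 1.35% in WT stimulated cells (1.35 to 1.36%), against 0.348% in Yap KO unstimulated cells (0.346 to 0.350%) and 0.324% in WT unstimulated cells (0.322 to 0.327%). In bulk RNA, a larger number of cells in cycle and more of the RNA per cell cannot be told apart. The additive test has 1 residual degree of freedom, to which the fit adds 7.98 prior degrees of freedom taken from all genes. Its p-values therefore rest mostly on a spread pooled over genes. The likeness of a gene's change between the genotypes enters in part, and repeated cultures do not enter. All intervals below cover counting error only. Exons of 23 members lie partly opposite those of another gene, and with the strand setting unknown the reads of both cannot be told apart, while all 33 other members rose.

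Large ratios were common among the members in both genotypes. Levels were at least 4-fold higher in stimulated cells for 32 members in Yap KO and 41 in WT cells, where 9.15% of all tested genes in Yap KO and 10.2% in WT cells reached that size. At least 8-fold was reached by 21 members in Yap KO and 22 in WT cells (4.59% and 5.28% of tested genes), and at least 16-fold by 11 members in Yap KO and 12 in WT cells (2.57% and 2.83% of tested genes). At least 2-fold was reached by 52 members in Yap KO and 54 in WT cells (22.7% and 23.8% of tested genes).

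**Figure D1:**
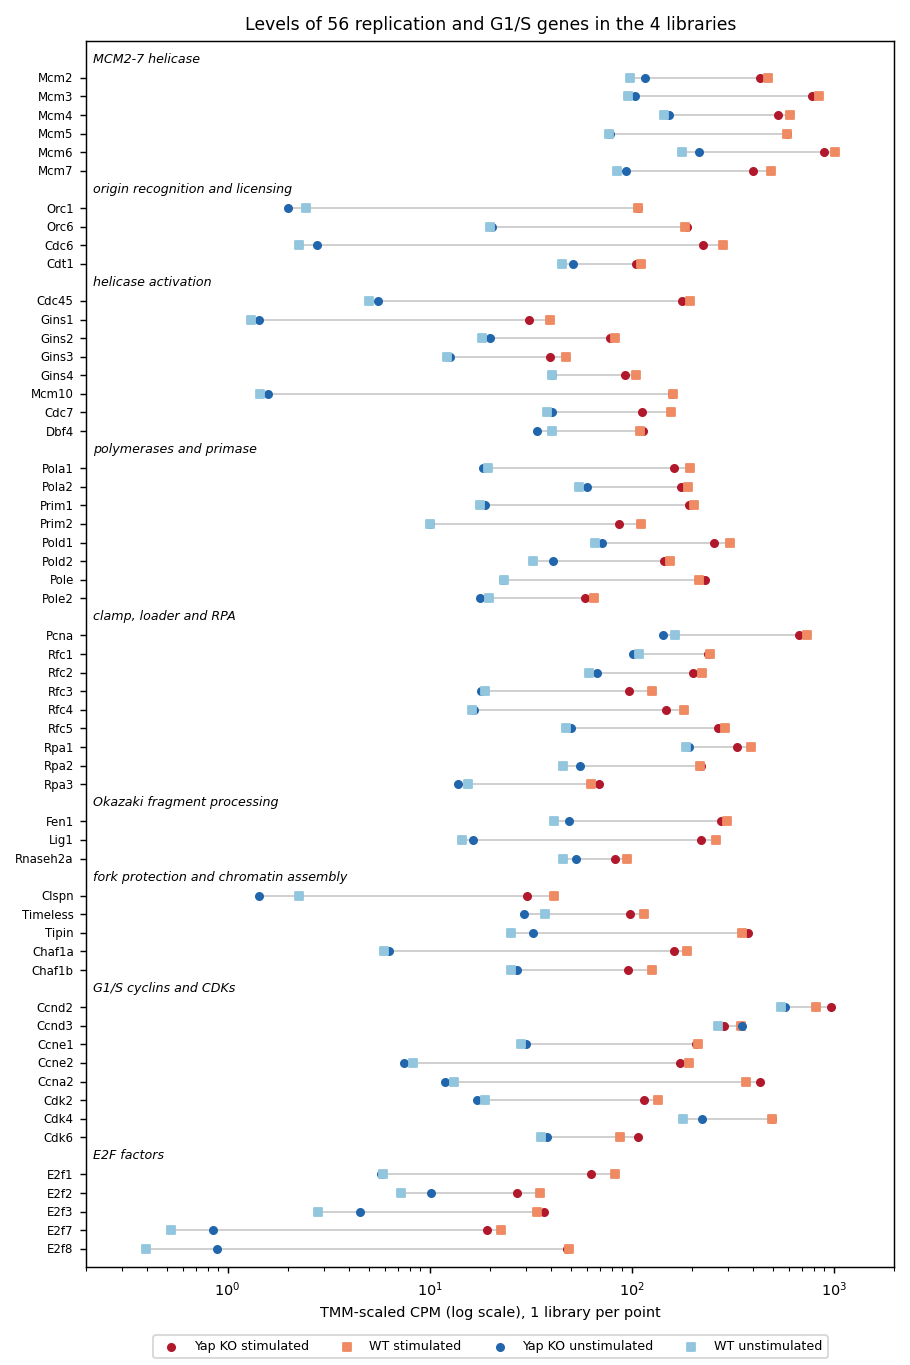
TMM-scaled CPM (horizontal axis, log scale) of the 56 members in the 4 libraries, grouped by role, with 1 point per library and a grey line over each member's range. The 2 stimulated points lie right of the 2 unstimulated points for all members but Ccnd3, and the points of the 2 genotypes mostly lie side by side within a state. The share of all tested genes with such a split was not counted.

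Among the licensing genes, the median log2 ratio was 4.44 in Yap KO and 4.31 in WT cells, and all 4 rose. Cdc6, the ATPase that joins the origin recognition complex to load MCM2-7, had 226 CPM in Yap KO and 283 CPM in WT stimulated cells, against 2.77 CPM in Yap KO and 2.27 CPM in WT unstimulated cells. Its log2 ratio in the additive fit was 6.64 ± 0.20 (SE, adjusted p = 3.16e-08 in edgeR). Orc1, the largest subunit of the origin recognition complex, had 107 CPM in Yap KO and 108 CPM in WT stimulated cells, against 2.00 CPM in Yap KO and 2.44 CPM in WT unstimulated cells (log2 ratio 5.60 ± 0.18). Both genes were almost silent in unstimulated cells of either genotype, and the states did not overlap. Here and below, a lack of overlap rests on 1 library per genotype and state. The share of all tested genes without overlap was not counted. Orc6, another subunit of the complex, had 188 CPM in Yap KO and 185 CPM in WT stimulated cells, against 20.5 CPM in Yap KO and 19.99 CPM in WT unstimulated cells (log2 ratio 3.20 ± 0.13). Cdt1, which brings the helicase to the origin, had 106 CPM in Yap KO and 111 CPM in WT stimulated cells, against 51.4 CPM in Yap KO and 45.3 CPM in WT unstimulated cells (log2 ratio 1.17 ± 0.13, adjusted p = 5.28e-05 in edgeR). Its states did not overlap either, but its ratio was the smallest of the licensing genes, at 2.05-fold in Yap KO and 2.44-fold in WT cells.

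All 6 subunits of the MCM2-7 helicase, the ring that unwinds the template, rose, and their median log2 ratio was 2.07 in Yap KO and 2.52 in WT cells. Mcm6 had 900.0 CPM in Yap KO and 1012 CPM in WT stimulated cells, against 215 CPM in Yap KO and 178 CPM in WT unstimulated cells (log2 ratio 2.29 ± 0.15). Mcm3 had 782 CPM in Yap KO and 843 CPM in WT stimulated cells, against 104 CPM in Yap KO and 96.4 CPM in WT unstimulated cells (log2 ratio 3.02 ± 0.14). Mcm5 had 589.8 CPM in Yap KO and 591 CPM in WT stimulated cells, against 77.8 CPM in Yap KO and 77.6 CPM in WT unstimulated cells (log2 ratio 2.93 ± 0.13). Stimulated levels of these 3 subunits lay well clear of the unstimulated levels, and Mcm5 was nearly equal in the 2 genotypes in both states. The log2 ratios were 2.08 ± 0.14 for Mcm2, 1.93 ± 0.13 for Mcm4 and 2.31 ± 0.15 for Mcm7. Ratios of the 6 subunits ran from 3.46-fold (Mcm4) to 7.58-fold (Mcm5) in Yap KO and from 4.21-fold (Mcm4) to 8.73-fold (Mcm3) in WT cells. Over the 6 subunits the counts summed to 3635 CPM in Yap KO and 4018 CPM in WT stimulated cells, against 760.6 CPM in Yap KO and 679.3 CPM in WT unstimulated cells. Mcm7 shares 33.4% of its 31-base stretches with other genes, Gm5487 the most among them, so its counts are less certain than those of the other 5 subunits, which share at most 5.26% with other genes.

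Of the 5 MCM2-7 genes with a RefSeq promoter window, 4 carry the letters of E2F sites. Those 4 are printed with the windows of Cdc6, the member with the largest ratio in WT cells, and of Ccnd3, the member that did not pass. Each sequence is the RefSeq window from 250 bases before to 50 bases after the gene's start, on GRCm38.p6 and on the gene's own strand, and capitals mark matches to TTTCCCGC, TTTCGCGC, TTTGCCGC or TTTGGCGC on either strand. The windows are chr1:20820263-20820562 (minus strand), chr8:75109259-75109558 (plus strand), chr1:128359656-128359955 (minus strand), chr5:138171834-138172133 (minus strand), chr11:98907901-98908200 (plus strand) and chr17:47504801-47505100 (plus strand), in the order printed. They were picked after the matches were seen. The start is one listed by RefSeq, and it can differ from the outer end of the gene in GENCODE. The windows of Mcm7 and Cdc6 lie wholly inside the GENCODE span of the gene. Mcm7 and Ccnd3 have 2 windows each, of which the first listed is printed and the other holds no match.
Mcm3: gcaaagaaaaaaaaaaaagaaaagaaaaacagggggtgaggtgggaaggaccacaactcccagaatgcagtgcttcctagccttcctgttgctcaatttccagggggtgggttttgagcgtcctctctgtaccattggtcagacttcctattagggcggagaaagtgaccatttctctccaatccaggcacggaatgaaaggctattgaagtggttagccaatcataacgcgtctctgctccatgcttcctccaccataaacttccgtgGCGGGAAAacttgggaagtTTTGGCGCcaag
Mcm5: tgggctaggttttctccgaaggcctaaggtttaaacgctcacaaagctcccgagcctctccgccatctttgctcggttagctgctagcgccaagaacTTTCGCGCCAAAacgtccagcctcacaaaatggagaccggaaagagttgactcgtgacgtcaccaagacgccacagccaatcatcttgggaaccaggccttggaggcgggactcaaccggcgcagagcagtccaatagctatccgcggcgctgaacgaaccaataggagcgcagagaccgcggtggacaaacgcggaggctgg
Mcm6: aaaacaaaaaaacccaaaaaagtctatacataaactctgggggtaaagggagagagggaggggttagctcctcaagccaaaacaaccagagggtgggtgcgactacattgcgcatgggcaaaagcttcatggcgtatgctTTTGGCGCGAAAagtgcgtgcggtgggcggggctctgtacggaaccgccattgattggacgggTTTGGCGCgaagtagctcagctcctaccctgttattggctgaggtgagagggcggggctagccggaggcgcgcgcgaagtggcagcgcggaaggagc
Mcm7: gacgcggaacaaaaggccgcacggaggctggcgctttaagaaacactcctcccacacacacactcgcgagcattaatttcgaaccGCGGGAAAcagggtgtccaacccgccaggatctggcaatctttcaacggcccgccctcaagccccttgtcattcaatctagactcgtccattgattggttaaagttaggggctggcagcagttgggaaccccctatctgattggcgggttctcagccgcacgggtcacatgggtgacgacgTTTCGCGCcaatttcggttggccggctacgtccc
Cdc6: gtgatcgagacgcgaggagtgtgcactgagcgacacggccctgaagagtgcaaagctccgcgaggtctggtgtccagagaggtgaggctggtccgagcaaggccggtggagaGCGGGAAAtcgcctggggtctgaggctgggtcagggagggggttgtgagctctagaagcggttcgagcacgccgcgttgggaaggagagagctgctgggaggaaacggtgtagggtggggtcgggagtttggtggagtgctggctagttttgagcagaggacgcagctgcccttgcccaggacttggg
Ccnd3: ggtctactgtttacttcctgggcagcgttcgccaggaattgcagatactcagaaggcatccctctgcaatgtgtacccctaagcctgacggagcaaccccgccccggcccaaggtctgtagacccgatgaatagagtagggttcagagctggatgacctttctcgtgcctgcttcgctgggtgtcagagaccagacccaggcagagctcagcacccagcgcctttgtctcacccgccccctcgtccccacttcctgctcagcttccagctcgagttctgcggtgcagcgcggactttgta
Mcm6 holds 3 matches, of which the 2 farther from the start overlap in TTTGGCGCGAAA and are each a match on 1 strand, and Mcm5 holds 2 that overlap in TTTCGCGCCAAA. Counted from the start, with bases before it negative, Mcm3 holds matches at 19 and 38, Mcm7 at -165 and 16, and Cdc6 at -138, while Ccnd3 holds none. A match is a description of letters and was not read as a bound site.

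Of the 56 members, 45 matched a RefSeq window, and 18 of these 45 (40%) held at least 1 of the 4 E2F letter strings, against 2.60% of all 27025 genes with a window and 4.78% of the 9974 tested genes with a window. The share was 4 of 5 for MCM2-7, 3 of 4 for licensing, 3 of 5 for the E2F factors, 3 of 6 for polymerases and primase, and 1 of 8 for clamp, loader and RPA genes. The letters were not particular to the members. They were in 8 of 24 (33.3%) other replisome and origin genes and 3 of 9 (33.3%) other E2F, DP, pocket protein and DREAM genes. In other G1 regulators they were in 2 of 14 (14.3%), and in deoxynucleotide supply genes in 0 of 9. In all, 24 matches were found in the member windows, 15 of them within 100 bases of the start, and 5 members held 2 or more. Letters of the cell cycle homology region (TTTGAA or TTCGAA, either strand), which is known from promoters of mitotic genes, were in 12 of the 45 (26.7%), against 21.7% of all genes and 16.7% of tested genes. In the mitosis genes used for comparison the shares were the other way round, with E2F letters in 1 of 16 (6.25%) and the homology region in 12 of 16 (75%). CCAAT, the letters bound by NF-Y, was in 28 of the 45 members (62.2%) and in all 5 of the MCM genes with a window, against 41.1% of all genes and 42.7% of tested genes. In the mitosis genes it was in 13 of 16 (81.2%). The stimulation log2 ratio had a median of 2.86 in the 18 members with E2F letters, with a range of 1.17 to 6.64, and 2.12 in the 27 without, with a range of 0.05 to 6.72, so the ranges lay over each other. Windows of Mcm4, Gins1, Gins2, Gins4, Prim2, Pole, Rfc2, Tipin, Ccnd2, Ccne2 and Ccna2 were not analysed here.

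The genes that turn the loaded helicase on differed more from each other than the MCM subunits did, and all 8 rose. Mcm10, which lies on chromosome 2 from 4989714 to 5012791 (GRCm38, ENSMUSG00000026669) and is needed to start unwinding, had 159 CPM in Yap KO and 161 CPM in WT stimulated cells, against 1.58 CPM in Yap KO and 1.44 CPM in WT unstimulated cells. Its log2 ratio of 6.72 ± 0.18 was the largest of all members (adjusted p = 2.49e-08 in edgeR), and stimulated cells of both genotypes had about the same level. Cdc45, which travels with the active helicase, had 178 CPM in Yap KO and 195 CPM in WT stimulated cells, against 5.58 CPM in Yap KO and 5.02 CPM in WT unstimulated cells (log2 ratio 5.13 ± 0.16). Gins1, of the 4-subunit GINS complex, had 30.97 CPM in Yap KO and 39.6 CPM in WT stimulated cells, against 1.42 CPM in Yap KO and 1.31 CPM in WT unstimulated cells (log2 ratio 4.67 ± 0.24). Gins4, of the same complex, had 93.2 CPM in Yap KO and 105 CPM in WT stimulated cells, against 40.5 CPM in Yap KO and 40.4 CPM in WT unstimulated cells (log2 ratio 1.29 ± 0.13). Within this complex the gene with the lowest unstimulated level per kilobase of exon changed most and the one with the highest changed least. Gins2 and Gins3 lay between, with log2 ratios of 2.08 ± 0.14 and 1.79 ± 0.17. Cdc7, the kinase that phosphorylates MCM2-7 at origins, had 112 CPM in Yap KO and 157 CPM in WT stimulated cells, against 40.5 CPM in Yap KO and 38.3 CPM in WT unstimulated cells (log2 ratio 1.75 ± 0.16). Dbf4, its activating subunit, had 114 CPM in Yap KO and 110.0 CPM in WT stimulated cells, against 34.2 CPM in Yap KO and 40.3 CPM in WT unstimulated cells (log2 ratio 1.60 ± 0.14). In stimulated cells Cdc7 was lower in Yap KO while Dbf4 was about level, and the difference was not tested. Gins2 lies with 67.3% of its exon bases opposite Gse1, and its counts cannot be told apart from reads of that gene.

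All 8 polymerase and primase genes rose, and their median log2 ratio was 2.48 in Yap KO and 2.74 in WT cells. Prim1, the catalytic primase subunit, had 192 CPM in Yap KO and 203 CPM in WT stimulated cells, against 18.8 CPM in Yap KO and 17.8 CPM in WT unstimulated cells (log2 ratio 3.43 ± 0.14). Pole, the catalytic subunit of the leading-strand polymerase epsilon, had 232 CPM in Yap KO and 217 CPM in WT stimulated cells, against 23.1 CPM in Yap KO and 23.2 CPM in WT unstimulated cells (log2 ratio 3.28 ± 0.13). Pold1, the catalytic subunit of the lagging-strand polymerase delta, had 257 CPM in Yap KO and 305 CPM in WT stimulated cells, against 71.1 CPM in Yap KO and 65.7 CPM in WT unstimulated cells (log2 ratio 2.04 ± 0.14). The states did not overlap for these genes, and Pole was at about 10-fold in both genotypes while Pold1 was at 3.61-fold in Yap KO and 4.64-fold in WT cells. Pola1, the catalytic subunit of polymerase alpha, had a log2 ratio of 3.23 ± 0.14, against 1.68 ± 0.13 for its partner Pola2. Prim2, the large primase subunit, had a log2 ratio of 3.29 ± 0.16. Smaller subunits of the other polymerases had smaller values than Pole, with 2.04 ± 0.15 for Pold2 and 1.72 ± 0.14 for Pole2. Primase and the catalytic subunits of polymerases alpha and epsilon thus had the 4 largest fitted ratios in this group, from 3.23 to 3.43.

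The clamp, its loader and the RPA proteins that coat single-stranded DNA gave 9 members, and all 9 rose. Pcna, the sliding clamp, had 678 CPM in Yap KO and 739.8 CPM in WT stimulated cells, against 143 CPM in Yap KO and 164 CPM in WT unstimulated cells (log2 ratio 2.21 ± 0.12). Pcna shares 23.3% of its 31-base stretches with Pcna-ps2, so its level is uncertain to that extent. Rfc4, a small subunit of the clamp loader, had 148 CPM in Yap KO and 181 CPM in WT stimulated cells, against 16.6 CPM in Yap KO and 16.3 CPM in WT unstimulated cells (log2 ratio 3.32 ± 0.15). Rfc1, the large subunit, had 238 CPM in Yap KO and 243 CPM in WT stimulated cells, against 102 CPM in Yap KO and 109 CPM in WT unstimulated cells (log2 ratio 1.19 ± 0.12). The 5 loader genes thus spanned a wide range of ratios, with 1.72 ± 0.13 for Rfc2, 2.60 ± 0.15 for Rfc3 and 2.52 ± 0.13 for Rfc5 between these ends. Rpa1, the largest RPA subunit, had 331 CPM in Yap KO and 391 CPM in WT stimulated cells, against 193 CPM in Yap KO and 185 CPM in WT unstimulated cells (log2 ratio 0.93 ± 0.13, adjusted p = 0.000177 in edgeR). Its partners Rpa2 and Rpa3 had larger log2 ratios of 2.12 ± 0.13 and 2.16 ± 0.16. Rpa1 thus changed least of the 3 subunits, and its states still did not overlap.

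The 3 genes that finish Okazaki fragments, the short pieces of the lagging strand, all rose. Lig1, the ligase that seals them, had 219.7 CPM in Yap KO and 262 CPM in WT stimulated cells, against 16.4 CPM in Yap KO and 14.5 CPM in WT unstimulated cells (log2 ratio 3.96 ± 0.16). Fen1, the nuclease that trims their flaps, had 276 CPM in Yap KO and 297 CPM in WT stimulated cells, against 49.2 CPM in Yap KO and 41.5 CPM in WT unstimulated cells (log2 ratio 2.66 ± 0.14). Rnaseh2a, the catalytic subunit of ribonuclease H2, had 83.1 CPM in Yap KO and 95.02 CPM in WT stimulated cells, against 52.97 CPM in Yap KO and 45.6 CPM in WT unstimulated cells (log2 ratio 0.85 ± 0.14, adjusted p = 0.000652 in edgeR). Lig1 thus moved far more than Rnaseh2a, whose ratio in Yap KO cells, 1.57-fold, was smaller than that of any member but Ccnd3 there. Fen1 lies with 84.2% of its exon bases opposite other genes, Gm10143 and Tmem258, and shares 79.6% of its 31-base stretches with other genes, so its values cannot be assigned to it alone.

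Among genes that guard the fork and rebuild chromatin behind it, all 5 rose, and the median log2 ratio was 3.52 in Yap KO and 3.80 in WT cells. Clspn, the adaptor that passes the stalled-fork signal to the checkpoint kinase, had 30.2 CPM in Yap KO and 41.3 CPM in WT stimulated cells, against 1.42 CPM in Yap KO and 2.27 CPM in WT unstimulated cells (log2 ratio 4.28 ± 0.22). Tipin and Timeless encode partners in a complex that holds helicase and polymerase together. Tipin had 375 CPM in Yap KO and 352 CPM in WT stimulated cells, against 32.6 CPM in Yap KO and 25.2 CPM in WT unstimulated cells (log2 ratio 3.67 ± 0.14). Timeless had 98.2 CPM in Yap KO and 116 CPM in WT stimulated cells, against 29.4 CPM in Yap KO and 37.2 CPM in WT unstimulated cells (log2 ratio 1.69 ± 0.13). Tipin thus changed far more than its partner, and the states did not overlap for either. Chaf1a, the large subunit of the histone chaperone CAF-1, had 162 CPM in Yap KO and 187 CPM in WT stimulated cells, against 6.27 CPM in Yap KO and 5.93 CPM in WT unstimulated cells (log2 ratio 4.83 ± 0.16). Chaf1b, the middle subunit, had 96.1 CPM in Yap KO and 126 CPM in WT stimulated cells, against 27.1 CPM in Yap KO and 25.2 CPM in WT unstimulated cells (log2 ratio 2.08 ± 0.16). Chaf1a thus changed more than Chaf1b, although 52.5% of its exon bases lie opposite Ubxn6 and its counts may hold reads of that gene.

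The cyclins and kinases of the G1/S transition held both a member with a very large ratio and the only one not called. Ccna2, cyclin A2 of S phase and G2, had 435 CPM in Yap KO and 369 CPM in WT stimulated cells, against 11.9 CPM in Yap KO and 13.2 CPM in WT unstimulated cells (log2 ratio 5.0 ± 0.16). Ccne2, cyclin E2, had 175 CPM in Yap KO and 192 CPM in WT stimulated cells, against 7.51 CPM in Yap KO and 8.29 CPM in WT unstimulated cells (log2 ratio 4.53 ± 0.14). Ccne1, cyclin E1, had 208 CPM in Yap KO and 212 CPM in WT stimulated cells, against 30.1 CPM in Yap KO and 28.2 CPM in WT unstimulated cells (log2 ratio 2.85 ± 0.13). The cyclins of the G1/S boundary and of S phase thus had large ratios in both genotypes, with no overlap of the states. Ccnd2, cyclin D2 of G1 phase, had 976 CPM in Yap KO and 818 CPM in WT stimulated cells, against 578 CPM in Yap KO and 547 CPM in WT unstimulated cells (log2 ratio 0.67 ± 0.13, adjusted p = 0.0014 in edgeR), the smallest ratio that passed. Ccnd3, on chromosome 17 from 47505051 to 47599691 (GRCm38, ENSMUSG00000034165), had 288 CPM in Yap KO and 348 CPM in WT stimulated cells, against 350.1 CPM in Yap KO and 268 CPM in WT unstimulated cells (log2 ratio 0.05 ± 0.16, adjusted p = 0.799 in edgeR). The Ccnd3 levels of the 2 states overlapped, since the highest and the lowest value both came from unstimulated cells. The kinase partners of cyclin D had log2 ratios of 1.31 ± 0.13 for Cdk4 and 1.40 ± 0.14 for Cdk6, and Cdk2, the partner of cyclins E and A, had 2.79 ± 0.14. The order was therefore cyclin A2 and E2 above cyclin E1 and Cdk2, with Cdk6, Cdk4 and the D cyclins below them.

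All 5 E2F factors among the members rose, from levels of at most 10.1 CPM in unstimulated cells. E2f8, an atypical repressor that lowers E2F targets late in S phase, had 920 reads in Yap KO and 1005 reads in WT stimulated cells, against 23 reads in Yap KO and 9 reads in WT unstimulated cells (log2 ratio 6.21 ± 0.28). E2f7, the other atypical repressor, had 373 reads in Yap KO and 461 reads in WT stimulated cells, against 22 reads in Yap KO and 12 reads in WT unstimulated cells (log2 ratio 4.90 ± 0.31). With so few unstimulated reads the size of both ratios is loosely set, but the states lay far apart. E2f1, an activator, had 63.1 CPM in Yap KO and 82.6 CPM in WT stimulated cells, against 5.74 CPM in Yap KO and 5.89 CPM in WT unstimulated cells (log2 ratio 3.63 ± 0.17). E2f2, an activator, had 26.9 CPM in Yap KO and 35.05 CPM in WT stimulated cells, against 10.1 CPM in Yap KO and 7.24 CPM in WT unstimulated cells (log2 ratio 1.83 ± 0.23). E2f3, also known as an activator, had 36.8 CPM in Yap KO and 34.2 CPM in WT stimulated cells, against 4.50 CPM in Yap KO and 2.79 CPM in WT unstimulated cells (log2 ratio 3.29 ± 0.22). The repressors E2f7 and E2f8 thus had larger fitted ratios than the 3 activators, of which E2f2 had the smallest.

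**Figure D2:**
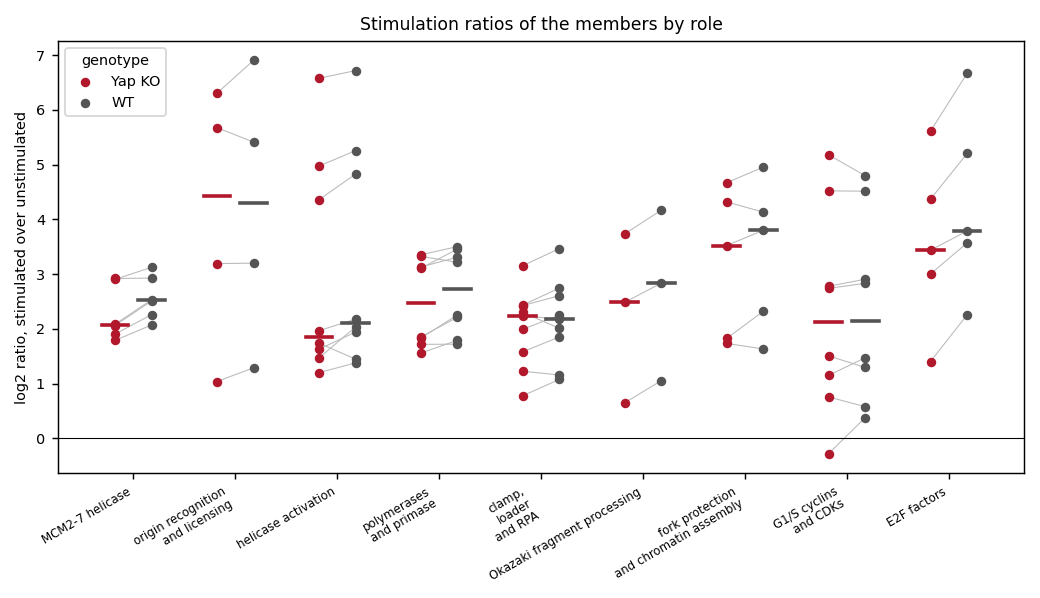
Log2 ratio of stimulated over unstimulated cells for each member (vertical axis) by role (horizontal axis), with 1 point per member and genotype, Yap KO left of WT, and a bar at the median of each role and genotype. Medians run from 1.85 in Yap KO and 2.11 in WT cells for helicase activation to 4.44 in Yap KO and 4.31 in WT cells for licensing, and only Ccnd3 in Yap KO cells lies below 0.

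Across the 56 members, those with few reads in unstimulated cells had the largest ratios. The groups by CPM that follow share the unstimulated libraries with the ratios. The 13 members with a mean below 10 CPM in the unstimulated libraries had a median log2 ratio of 4.52 in Yap KO and 4.96 in WT cells. The 27 members at 10 to 50 CPM had 2.43 in Yap KO and 2.61 in WT cells. The 16 members at 50 CPM or more had 1.82 in Yap KO and 2.12 in WT cells. To avoid a library shared by both measures, the WT unstimulated level per kilobase was set against the Yap KO ratio, which gave a Pearson r of -0.75 on the log level and a Spearman rho of -0.65 over the 56 genes. The Yap KO unstimulated level against the WT ratio gave a Pearson r of -0.77 and a Spearman rho of -0.67. With the WT unstimulated library in both measures, the Pearson r was -0.78. The use of different libraries takes away shared counting error only. Unstimulated levels were much alike in the 2 genotypes, so the level still enters the ratio, and a negative r is partly built in. These are descriptions across genes, which are not independent replicates. The log2 ratios of the members in Yap KO and in WT cells, which share no library, had a Pearson r of 0.98 across the 56 genes.

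**Figure D3:**
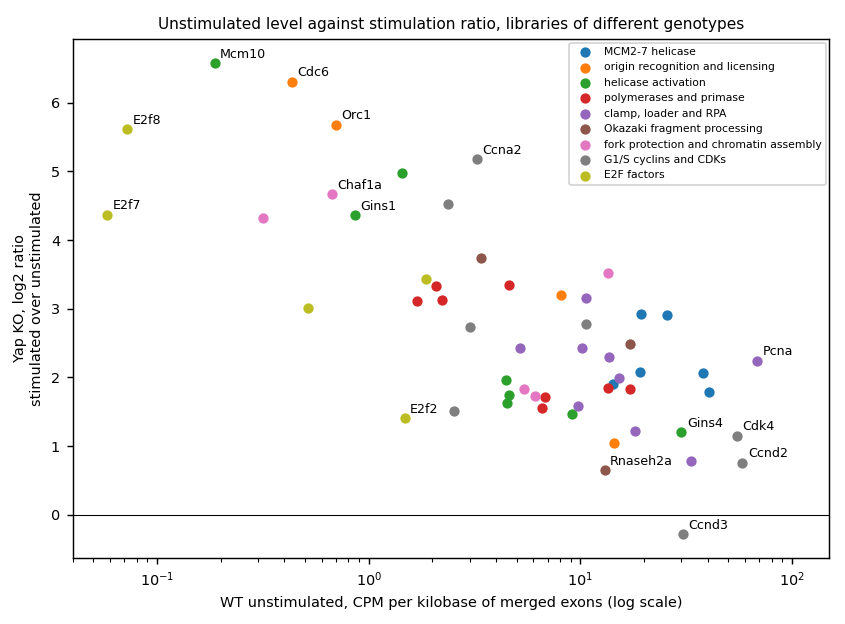
Log2 ratio of stimulated over unstimulated Yap KO cells (vertical axis) against CPM per kb of merged exons in WT unstimulated cells (horizontal axis, log scale), with 1 point per member coloured by role. Points run from upper left, where Mcm10 and Cdc6 lie above 6, to lower right, where Ccnd2 and Ccnd3 lie below 1.

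Levels of different genes were compared as CPM per kilobase of merged exons. In stimulated cells Pcna stood highest, with 282 CPM per kb in Yap KO and 308 CPM per kb in WT stimulated cells, then Mcm3 with 208 CPM per kb in Yap KO and 225 CPM per kb in WT stimulated cells. Mcm6 with 193 CPM per kb in Yap KO and 217 CPM per kb in WT stimulated cells and Tipin with 201 CPM per kb in Yap KO and 189 CPM per kb in WT stimulated cells followed, in an order that differed between the genotypes. E2f7 stood lowest, with 2.14 CPM per kb in Yap KO and 2.50 CPM per kb in WT stimulated cells, below Clspn with 4.20 CPM per kb in Yap KO and 5.75 CPM per kb in WT stimulated cells. In unstimulated cells the top differed by genotype, with Cdk4 at 69.0 CPM per kb in Yap KO and 55.1 CPM per kb in WT unstimulated cells and Pcna at 59.6 CPM per kb in Yap KO and 68.3 CPM per kb in WT unstimulated cells, and Ccnd2 at 61.4 CPM per kb in Yap KO and 58.2 CPM per kb in WT unstimulated cells. The values of these 3 genes lay close together there, and their order was not the same in the 2 genotypes. Within the GINS complex, Gins4 exceeded the lowest subunit 4.77-fold in Yap KO and 4.48-fold in WT stimulated cells, against 31.9-fold in Yap KO and 34.7-fold in WT unstimulated cells. The CAF-1 subunits were 1.12-fold apart in Yap KO and 1.28-fold in WT stimulated cells, against 8.15-fold in Yap KO and 8.04-fold in WT unstimulated cells. The GINS subunits and the CAF-1 subunits were thus closer in level in stimulated cells. Timeless and Tipin did the reverse, with Tipin 12.5-fold above Timeless in Yap KO and 10-fold in WT stimulated cells, against 3.61-fold in Yap KO and 2.22-fold in WT unstimulated cells. The MCM2-7 subunits stayed within 3.33-fold of each other in Yap KO and 3.30-fold in WT stimulated cells, and within 2.77-fold in Yap KO and 2.84-fold in WT unstimulated cells. With the length of the principal transcript in place of merged exons, the contrasts in GINS, in CAF-1 and between Timeless and Tipin kept their direction. In Yap KO cells GINS was then at 4.43-fold in stimulated against 22.9-fold in unstimulated cells, CAF-1 at 1.71-fold against 12.5-fold, and Timeless with Tipin at 9.27-fold against 2.68-fold. The MCM2-7 spread did not keep its order with that length. It was 2.40-fold in Yap KO and 2.49-fold in WT stimulated cells, against 3.22-fold in Yap KO and 2.66-fold in WT unstimulated cells. The ranking of single genes moved as well. Pcna stayed highest in stimulated cells, but Mcm6 stood above Mcm3. In unstimulated cells Ccnd3 became the highest member, with 166.0 CPM per kb in Yap KO and 127.0 CPM per kb in WT cells, above Cdk4 and Pcna. E2f7 was the lowest member in all 4 libraries with either length.

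Between the genotypes no member passed the additive test. Yap KO over WT gave 0 of 56 members called (edgeR quasi-likelihood test of the genotype term, additive to state), where 1.40% of tested genes were called, 0.838% higher and 0.559% lower in Yap KO. The DESeq2 Wald test also called 0 members. At an unadjusted p under 0.05 the edgeR test gave 1 member, beside 11.6% of tested genes. That member was Clspn, with 30.2 CPM in Yap KO and 41.3 CPM in WT stimulated cells, against 1.42 CPM in Yap KO and 2.27 CPM in WT unstimulated cells, and it was lower in Yap KO in both states. Its fitted log2 ratio of Yap KO over WT was -0.51 ± 0.20 (adjusted p = 0.367 in edgeR). Timeless, which acts with it at the fork, came next with -0.28 ± 0.13 (adjusted p = 0.442 in edgeR) and was also lower in Yap KO in both states. These p-values compare 2 cell sources and are too small for a comparison of mice. No member reached 2-fold between the genotypes with 1 sign in both states (1.84% of tested genes, 0.955% higher and 0.883% lower in Yap KO), and none reached 1.5-fold (3.59% of tested genes, 1.81% higher and 1.79% lower in Yap KO).

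Within stimulated cells the differences between genotypes were small and leaned to lower values in Yap KO. The log2 ratio of Yap KO over WT was below 0 for 45 of 56 members, beside 50.1% of tested genes, and above 0 for 11, beside 49.3%, and its median was -0.13, beside -0.001 over all tested genes. The 95% counting interval lay below 0 for 37 members (23.1% of tested genes) and above 0 for 6 (23.9% of tested genes). Cdc7 had the lowest ratio, -0.49 (95% counting interval -0.57 to -0.41). Clspn had -0.45 (95% counting interval -0.61 to -0.30), Chaf1b -0.40 (95% counting interval -0.48 to -0.31) and E2f1 -0.39 (95% counting interval -0.50 to -0.28). These 4 genes act in firing, fork protection, chromatin assembly and transcription, so the lower end was not filled by a single complex. At the upper end Cdk6 had 0.31 (95% counting interval 0.21 to 0.40), Ccnd2 0.26 (95% counting interval 0.23 to 0.28) and Ccna2 0.23 (95% counting interval 0.19 to 0.28). Of the 6 members with an interval above 0, these 3 were G1/S cyclins and kinases, and the others were Tipin, Rpa3 and Pole. All 6 MCM subunits were below 0 in the ratio, from -0.29 for Mcm7 to -0.003 for Mcm5.

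Within unstimulated cells the lean was the other way. The log2 ratio of Yap KO over WT was above 0 for 40 of 56 members, beside 54.6% of tested genes, with a median of 0.09, beside 0.03 over all tested genes. The counting interval lay above 0 for 20 members (29.1% of tested genes) and below 0 for 5 (20.3% of tested genes). E2f3 had 0.67 (95% counting interval 0.24 to 1.15), E2f7 0.61 (95% counting interval -0.38 to 1.84), E2f2 0.48 (95% counting interval 0.20 to 0.77) and Ccnd3 0.39 (95% counting interval 0.34 to 0.43). E2f8 had the highest ratio, 1.01 (95% counting interval 0.01 to 2.47), from 23 reads in Yap KO and 9 reads in WT cells. Cyclin D3 and 4 of the 5 E2F factors thus made up the upper end, on few reads for E2f7 and E2f8. The 5 members with an interval below 0 were Clspn, Timeless, Dbf4, Pcna and Rfc1. Of the 56, 33 were below WT in stimulated and above WT in unstimulated cells, beside 23.8% of tested genes. Both counting intervals were clear of 0 in that direction for 13 members, beside 5.39% of tested genes, and in the opposite direction for 0 members, beside 3.49%. Across the members the ratio in stimulated cells and that in unstimulated cells had a Pearson r of 0.09, and the 2 ratios share no library.

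**Figure D4:**
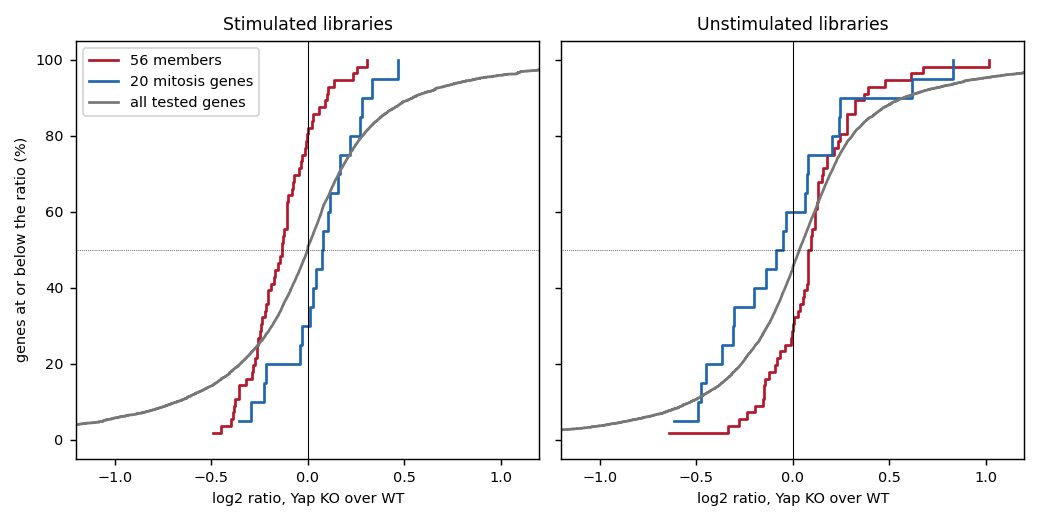
Share of genes (vertical axis, percent) at or below each log2 ratio of Yap KO over WT (horizontal axis), for the 56 members, 20 mitosis genes and all tested genes, with stimulated libraries on the left and unstimulated libraries on the right. The members' line lies left of the line of all tested genes around the median in stimulated cells (median -0.13) and right of it in unstimulated cells (median 0.09).

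The ratio of stimulated over unstimulated cells was smaller in Yap KO than in WT for 44 of 56 members, beside 54.7% of tested genes. The interval of the difference lay below 0 for 30 members (23.3% of tested genes) and above 0 for 5 (17.2% of tested genes). The median difference of log2 ratios, Yap KO minus WT, was -0.28 over the members and -0.05 over all tested genes. For each gene this difference equals the ratio of Yap KO over WT in stimulated cells minus that in unstimulated cells. It therefore restates the 2 leans given above and is not a separate result. No member's ratios differed by 2-fold or more with an interval that left out 0 (6.44% of tested genes, 2.51% with a larger and 3.92% with a smaller ratio in Yap KO). At 1.5-fold, 3 members had a smaller ratio in Yap KO (8.19% of tested genes) and 0 a larger one (5.32% of tested genes). These 3 were E2f2 with -0.86 (95% counting interval -1.18 to -0.53), Ccnd3 with -0.66 (95% counting interval -0.73 to -0.59) and Cdc6 with -0.60 (95% counting interval -1.12 to -0.09). E2f8 had a wider value, -1.06 (95% counting interval -2.15 to 0.04). Ccnd3 was the only member whose log2 ratio had opposite signs in the 2 genotypes, -0.28 (95% counting interval -0.33 to -0.23) in Yap KO and 0.38 (95% counting interval 0.33 to 0.43) in WT cells. Both intervals were clear of 0 in those directions for Ccnd3 alone of the 56, beside 1.18% of tested genes. The difference was largest the other way for Ccna2, with 0.38 (95% counting interval 0.15 to 0.61). Most members therefore had slightly smaller ratios in Yap KO, and the difference between genotypes was not tested, because it takes the only residual degree of freedom.

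Other genes of the same pathway were followed through 5 lists. Their calls stand beside 33.3% of all tested genes called higher and 34.1% lower with stimulation. Of 30 further replisome and origin genes, 25 rose and 2 fell, with a median log2 ratio of 1.59 in Yap KO and 1.27 in WT cells, below that of the members. The largest log2 ratios that passed were those of the PCNA-binding factor Pclaf (6.98 ± 0.16), the nuclease-helicase Dna2 (5.60 ± 0.26) and topoisomerase II alpha, Top2a (5.51 ± 0.15). The smallest were those of topoisomerase II beta, Top2b (-1.13 ± 0.16), the small polymerase delta subunit Pold4 (-0.64 ± 0.20) and the MCM-binding protein Mcmbp (0.36 ± 0.12), of which Top2b and Pold4 fell. Top2a thus rose where its paralog Top2b fell, with Top2a at 705 CPM in Yap KO and 726 CPM in WT stimulated cells, against 15.9 CPM in Yap KO and 15.4 CPM in WT unstimulated cells. Of 14 further genes of the E2F, DP, pocket protein and DREAM families, 7 rose and 1 fell. The ends were Mybl2 (5.77 ± 0.17), Foxm1 (4.10 ± 0.20) and the E2F partner Tfdp1 (3.27 ± 0.14) above, and Rbl2 (-1.99 ± 0.15), E2f6 (0.74 ± 0.14) and E2f4 (0.88 ± 0.14) below. Rbl2, the pocket protein p130 of resting cells, fell, with 63.4 CPM in Yap KO and 45.9 CPM in WT stimulated cells, against 213 CPM in Yap KO and 215 CPM in WT unstimulated cells. The other pocket proteins did not pass, with -0.01 ± 0.14 for Rb1 (adjusted p = 0.947 in edgeR) and 0.28 ± 0.13 for Rbl1 (adjusted p = 0.0792 in edgeR).

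Of 17 further G1 regulators, 15 were tested, of which 10 rose and 5 fell, beside 33.3% of all tested genes called higher and 34.1% lower. Cdkn1a, the inhibitor p21, had 207 CPM in Yap KO and 143 CPM in WT stimulated cells, against 0.423 CPM in Yap KO and 0.436 CPM in WT unstimulated cells (log2 ratio 8.65 ± 0.22), a larger ratio than any member's. Cdkn1b, the inhibitor p27, had 3.06 CPM in Yap KO and 5.29 CPM in WT stimulated cells, against 26.7 CPM in Yap KO and 32.5 CPM in WT unstimulated cells (log2 ratio -2.85 ± 0.22). These 2 inhibitors of the same kinases thus moved in opposite directions. The kinase subunits Cks1b (4.55 ± 0.15) and Cks2 (3.12 ± 0.19) also rose, and Cdkn1c (-2.76 ± 0.62) and Ccnd1 (-1.44 ± 0.51) fell, the last with 15 reads in Yap KO and 7 reads in WT stimulated cells, against 52 reads in Yap KO and 24 reads in WT unstimulated cells. Of 10 deoxynucleotide supply genes, 9 rose and 1 fell, with a median log2 ratio of 3.89 in Yap KO and 3.87 in WT cells. The ends were Rrm2 (6.75 ± 0.17), Tk1 (5.001 ± 0.26) and Tyms (4.52 ± 0.18) above. Below were Samhd1 (-0.77 ± 0.23), which encodes a dNTP hydrolase and fell, Dck (1.32 ± 0.13) and Shmt1 (3.44 ± 0.15). The fall of Samhd1 lay mostly in Yap KO cells, with a log2 ratio of -1.34 there and -0.20 in WT cells. Stimulated cells had 124.9 CPM of Samhd1 in Yap KO and 250.8 CPM in WT. Unstimulated cells had 317 CPM in Yap KO and 287.6 CPM in WT. The difference of the Samhd1 ratios, Yap KO minus WT, was -1.15 (counting interval -1.23 to -1.06) and was not tested. All 20 mitosis genes rose. Their median log2 ratio was 6.18 in Yap KO and 6.09 in WT cells, from Incenp (2.85 ± 0.14), Kif20a (3.51 ± 0.14) and Cdc20 (3.69 ± 0.14) to Ccnb1 (7.67 ± 0.18), Bub1 (7.39 ± 0.19) and Ttk (6.97 ± 0.23). Their median log2 ratio of Yap KO over WT was 0.08 in stimulated and -0.07 in unstimulated cells, beside -0.13 and 0.09 for the members, and this contrast was not tested. Of the genes named from these lists, Cdkn1c has 30.6% of its exon bases opposite another gene, Kif20a 29.3%, Ccnd1 23.4% and Rbl2 21.0%. None of these 5 lists held a gene called between the genotypes in edgeR, where 1.40% of all tested genes were called.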

How the data were processed

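The 4 mouse RNA libraries are 1 for each genotype and state. The authors deposited raw read counts per Ensembl gene identifier, as whole numbers with no normalization, and mm9 is the genome build named in the submitters' processing notes. The aligner, annotation release and strand setting used for counting were not given in the sources used here. Reads outside genes, unaligned, ambiguous or multiply aligned filled 5 closing entries per file, which were left out, and reads in genes made up 35.6 to 39.7% of all entries. Of 50686 identifiers, 50376 matched a symbol. Coordinates, lengths and opposite-strand overlaps come from GENCODE M21 on GRCm38, and promoter windows from RefSeq on GRCm38.p6.

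edgeR 4.0.16 (filterByExpr by state, minimum count 10, TMM factors 0.969 to 1.04) kept 15394 genes, and the quasi-likelihood F test, additive in genotype and state, was fitted to all of them, with Benjamini-Hochberg adjustment over all 15394 at 0.05. Log2 ratios between 2 libraries add a prior count of 2, and their 95% intervals are exact Clopper-Pearson intervals of the counts. The interval of a difference of 2 such ratios is a normal one on the log scale. Intervals cover counting error only, since each group has 1 library, and they are too narrow where reads repeat the same molecule. All 56 members are named, and of each further list the 3 called genes with the largest and the 3 with the smallest ratio, with Cdkn1a, Cdkn1b, Rb1, Rbl1 and Rbl2 in any case. Members, lists and alternatives were chosen with earlier results of these data known, so none of the patterns is independent of them. The fit was run on simulated data in which few genes changed with state and none with genotype. That setting differs from these data, where 67.4% of tested genes were called with stimulation, so it does not check the calls made here. Alternatives were DESeq2 1.42.0 size factors and Wald test, total counts, no filter, single-term designs, leaving out genes opposite another gene, a prior count of 0.5, and a 1.5-fold rule. The older quasi-likelihood fit, the count of members with a smaller ratio in Yap KO, leaving out 3 members and the principal-transcript length were added after the data were seen.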

Additional observations from a re-analysis of the deposited data

Results flagged for a closer look

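For 13 members the log2 ratio of Yap KO over WT lay below 0 in stimulated and above 0 in unstimulated cells with both counting intervals clear of 0, beside 5.39% of tested genes. In 5 of the 6 MCM genes it was -0.12 in stimulated and 0.23 in unstimulated cells for Mcm2, -0.11 and 0.11 for Mcm3, -0.20 and 0.08 for Mcm4, -0.17 and 0.28 for Mcm6, and -0.29 and 0.16 for Mcm7. Among polymerase and loader genes it was -0.11 in stimulated and 0.13 in unstimulated cells for Pola2, -0.25 and 0.11 for Pold1, -0.10 and 0.32 for Pold2, and -0.14 and 0.13 for Rfc2. For the lagging-strand genes it was -0.10 in stimulated and 0.25 in unstimulated cells for Fen1 and -0.19 and 0.21 for Rnaseh2a. For Ccnd3 it was -0.28 in stimulated and 0.39 in unstimulated cells, and for E2f2 -0.38 and 0.48. Ccnd3 also had log2 ratios of stimulated over unstimulated on opposite sides of 0, with -0.28 in Yap KO and 0.38 in WT cells, beside 1.18% of tested genes with both intervals clear of 0 in those directions. With 1 library per group these differences between groups were not tested, and the intervals cover counting error only.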

How the results depend on the processing

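The stimulation calls kept 55 members higher and 0 lower under DESeq2 size factors, total counts, no filter, the DESeq2 Wald test, state alone and the older quasi-likelihood fit. With genes opposite another gene left out, 33 of the 33 members still tested were called higher, among 3233 genes higher and 3401 lower of 10018. The number of members called between genotypes was 0 under every alternative run. Over all genes, those calls moved to 72 higher and 47 lower with genes opposite another gene left out, to 56 lower with total counts, to 23 higher and 18 lower without a filter, and to 0 in each direction for genotype alone. The 1.5-fold rule gave 3 members with a smaller ratio in Yap KO. The count with a smaller ratio in Yap KO was 26 of 33 with genes opposite another gene left out and 41 to 45 of 56 under the scalings and without a filter. In stimulated cells 44 to 46 of 56 members were lower in Yap KO under the scalings and without a filter, and in unstimulated cells 38 to 43 were higher. Signs turned for values near 0. With total counts the stimulation log2 ratio of Ccnd3 was -0.035, and the genotype log2 ratio was -0.014 for Mcm3, -0.006 for Pola2, -0.013 for Rpa3, -0.006 for Rnaseh2a and -0.008 for E2f2. With DESeq2 size factors it was -0.007 for Mcm3, -0.004 for Rpa3 and -0.001 for E2f2. With the DESeq2 Wald test it was -0.007 for Mcm3, -0.011 for Rpa3 and 0.101 for E2f7. The cause was not tested. The additive test already sets the states side by side within each genotype. No further pairing was possible because the groups share only replicate number 1, with 1 library each, and no replicate could be left out. Few unstimulated reads limit E2f7, E2f8, Clspn, Gins1, Mcm10, Orc1 and Cdc6.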
